A study of Mus musculus with 8 samples.

Results

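The genes described here are 8 members of the RAS pathway in the mouse genome (mm10), taken with every deposited region that lies in the gene or within 5000 bp of it. They hold 77 regions of the 220894 in the list. Hras, Nras and Braf, which carry the growth signal forward, were set against Nf1, Rassf1, Spry2, Spred1 and Dusp6, which restrain it. The 3 activators hold 12 of the regions and the 5 inhibitors 65, of which Nf1 alone holds 31. All 8 genes had a region, compared with 87.9% of protein-coding genes, and 7 of them, all but Nras, had at least 3, compared with 75%. The genes were listed by name and not by a threshold on a measured value.

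Bisulfite sequencing was used to read DNA methylation in 8 mouse cell lines grown in serum, after hybrid capture of their genomic DNA with a mouse methylation kit. Of these, 4 were brain tumour lines with mutant IDH, 2 were brain tumour lines with wild-type IDH labelled as RAS gliomas, and 2 were immortalized astrocyte lines with wild-type IDH, of which 1 expresses exogenous wild-type IDH1. The astrocyte lines and the mutant tumour lines were derived from N::TVA mice whose genotype included floxed Cdkn2a and floxed Atrx, with a further floxed allele that is not reported here. The wild-type tumour lines came from N::TVA mice with floxed Cdkn2a alone. All lines share a mixed C57Bl/6, 129 and FVB/n strain background, and no group lacks floxed Cdkn2a. The names of both astrocyte lines include PDGFA. Mutant and wild-type tumour lines thus differ in the genotype of the mice as well as in IDH, and these differences cannot be told apart. Which RAS gene the RAS gliomas carry is not stated in the labels. The values analysed here were 1 list of regions for all 8 lines together, so no value below belongs to a single line or group, no value has a replicate error, and neither methylation levels nor differences between the mutant and the other lines were analysed here. The list holds no expression value, so the cell type of the lines was not checked against markers. The depth of each line is unknown.

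RAS proteins are small GTPases that pass signals from growth factor receptors to RAF, MEK and ERK kinases when bound to GTP. The pathway is limited at several levels. Neurofibromin speeds the return of RAS to its GDP-bound form, Sprouty and Spred proteins act between the receptor and RAF, and dual specificity phosphatases remove phosphate from ERK. RAS signalling drives many gliomas, and loss of NF1 is a known route to it. In mammals the promoters of such broadly used genes are often rich in CG dinucleotides, the sites at which DNA methylation is mostly found and at which bisulfite sequencing reads it.

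The promoters of these genes are shown first, because they differ in how much of them the list reached. Each sequence is the RefSeq window (GRCm38.p6, the assembly mm10 names) from 250 bases before to 50 bases after an annotated start, read 5′ to 3′ in the direction of the gene, with every CG dinucleotide in capitals. All 8 genes matched the table, Rassf1 with 2 starts, giving 9 windows. The first pair lies whole within a region, with 19 CG sites each. The window of Nras lies on the plus strand at chr3:103058035-103058334, and that of Dusp6 on the plus strand at chr10:99262981-99263280.
Nras: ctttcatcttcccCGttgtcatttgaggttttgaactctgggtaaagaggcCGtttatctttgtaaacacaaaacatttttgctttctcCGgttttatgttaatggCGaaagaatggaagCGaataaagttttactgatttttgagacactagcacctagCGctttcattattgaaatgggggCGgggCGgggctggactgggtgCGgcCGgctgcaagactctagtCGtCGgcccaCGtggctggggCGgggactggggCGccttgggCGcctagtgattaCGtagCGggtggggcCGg
Dusp6: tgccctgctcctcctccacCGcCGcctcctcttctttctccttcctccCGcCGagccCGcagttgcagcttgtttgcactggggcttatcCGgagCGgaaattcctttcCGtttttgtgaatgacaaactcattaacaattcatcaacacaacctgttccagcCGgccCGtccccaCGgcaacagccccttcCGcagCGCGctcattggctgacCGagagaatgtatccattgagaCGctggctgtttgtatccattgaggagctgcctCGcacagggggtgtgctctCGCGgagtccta
The next pair shares no base with any region. The window of Nf1 holds 30 CG sites on the plus strand at chr11:79339642-79339941, and that of Spred1 holds 40 on the plus strand at chr2:117120821-117121120.
Nf1: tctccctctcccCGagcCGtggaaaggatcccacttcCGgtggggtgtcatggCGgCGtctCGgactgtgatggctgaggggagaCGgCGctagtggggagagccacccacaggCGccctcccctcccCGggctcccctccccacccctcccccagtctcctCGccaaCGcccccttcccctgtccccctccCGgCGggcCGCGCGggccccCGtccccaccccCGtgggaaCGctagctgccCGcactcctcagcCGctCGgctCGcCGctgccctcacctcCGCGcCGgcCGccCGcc
Spred1: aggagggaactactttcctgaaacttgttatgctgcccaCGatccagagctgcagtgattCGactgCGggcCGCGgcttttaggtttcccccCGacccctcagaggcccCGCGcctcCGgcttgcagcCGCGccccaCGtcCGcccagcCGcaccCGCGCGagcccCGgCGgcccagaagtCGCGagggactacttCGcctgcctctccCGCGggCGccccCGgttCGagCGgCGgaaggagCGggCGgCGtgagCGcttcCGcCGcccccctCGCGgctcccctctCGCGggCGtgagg
The window of Braf, on the minus strand at chr6:39725414-39725713, is shown because its first 243 bases lie in a region and hold 24 of its 30 CG sites.
Braf: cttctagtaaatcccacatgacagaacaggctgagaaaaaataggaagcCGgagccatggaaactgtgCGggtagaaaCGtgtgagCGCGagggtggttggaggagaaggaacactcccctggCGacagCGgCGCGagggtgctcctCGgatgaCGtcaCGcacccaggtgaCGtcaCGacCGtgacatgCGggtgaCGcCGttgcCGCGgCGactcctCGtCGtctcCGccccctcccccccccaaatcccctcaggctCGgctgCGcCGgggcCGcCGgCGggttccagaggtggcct
The upstream window of Rassf1, on the plus strand at chr9:107551305-107551604, is shown as a window that a region reaches only at its edge, over its first 76 bases and 4 of its 27 CG sites.
Rassf1: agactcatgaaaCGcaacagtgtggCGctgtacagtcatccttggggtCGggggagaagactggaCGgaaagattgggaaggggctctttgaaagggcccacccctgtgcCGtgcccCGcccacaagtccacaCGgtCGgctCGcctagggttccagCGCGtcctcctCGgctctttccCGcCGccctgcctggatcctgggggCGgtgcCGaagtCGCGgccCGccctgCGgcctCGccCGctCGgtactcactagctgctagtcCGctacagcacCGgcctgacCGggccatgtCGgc

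The CG-rich windows were reached less than the CG-poorer ones among these genes. At least 1 base of 7 of the 9 windows lay in a region, and 2 windows lay whole in one. Over all 21263 promoter windows of protein-coding genes these shares were 58.3% and 25.3%. The base at which transcription starts lay in a region for 3 of the 9 windows, those of Nras, Spry2 and Dusp6, against 37.6% of all windows. In CG sites, 76 of the 254 in the 9 windows (29.9%) lay in a region, against 43.2% over all windows. The 3 activator windows had 48 of 83 sites in a region (57.8%), and the 6 inhibitor windows 28 of 171 (16.4%). Nras with 19 sites and Braf with 24 made up most of the activators' count. Dusp6 gave 19 of the inhibitors' 28. Among the 47 other pathway genes described below, the order was the other way, with 190 of 497 sites (38.2%) for activators and 222 of 489 (45.4%) for inhibitors.

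The rest of the windows were reached at an edge or not at all. Hras had 34 CG sites, of which 5 lay in a region that covered the first 54 bases of the window. Spry2 had 28 CG sites, of which 5 lay in a region that began at base 220 and ran on into the gene. The downstream start of Rassf1, at chr9:107554333-107554632, had 27 sites, and the region beside it reached 8 bases and none of the sites. The downstream start of Rassf1 lies inside the gene, so the gene had a stretch without a region at each of its annotated starts. These stretches measured 320 bp (chromosome 9, 107551381 to 107551700) and 360 bp (107554341 to 107554700). The stretch without a region around the Nf1 start measured 840 bp (chromosome 11, 79339421 to 79340260), the one at Spred1 1400 bp (chromosome 2, 117120641 to 117122040) and the one at Hras 1510 bp (chromosome 7, 141192691 to 141194200). At Braf it measured 570 bp, and the annotated start of the promoter window lay 8 bp from the nearest region. All of these genes had regions on both sides of the stretch.

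**Figure D1:**
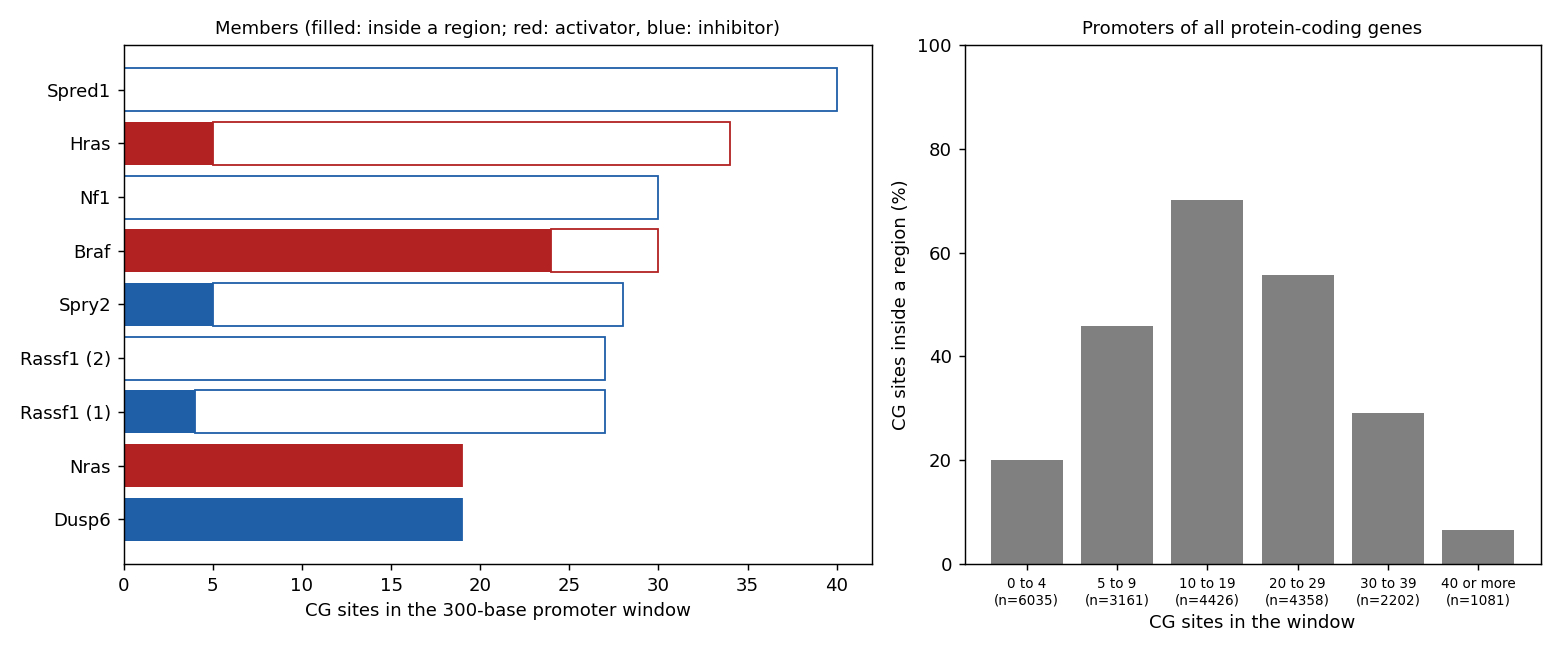
Left, CG sites (x axis, number) in the 9 promoter windows of the 8 genes (y axis), with the filled part inside a deposited region and the open part outside, activators in red and inhibitors in blue. Right, the percentage of CG sites inside a region (y axis) for all protein-coding promoter windows by their number of CG sites (x axis, n windows in brackets); it is highest at 70.1% for 10 to 19 sites and lowest at 6.68% for 40 or more.

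The same order by CG number was seen over all promoter windows. Among windows with 10 to 19 CG sites, where Nras and Dusp6 fall, 49.2% lay whole in a region and 70.1% of the sites were inside one. Among the 4358 windows with 20 to 29 sites, where both Rassf1 windows and Spry2 fall, 31.6% lay whole in a region and 55.7% of the sites were inside one. With 30 to 39 sites, as at Hras, Braf and Nf1, 10.1% lay whole and 29.2% of the sites were inside. With 40 or more, as at Spred1, 1.02% lay whole, 32.6% were touched at all, and 6.68% of the sites were inside. The fall was not seen at the low end, since windows with under 5 sites were touched in 19.2% of cases. The Braf window, with 24 of 30 sites inside, lay above the share for its class, and Nf1, Spred1, Hras, Spry2 and both Rassf1 windows lay below theirs. The median over all windows was 13 CG sites and the upper quartile 24, so 7 of the 9 windows of these genes lie above the upper quartile. The target list of the kit was not used here, and the part of the kit's design, of capture and of sequencing in these stretches was not tested.

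The Braf window also held a motif with a CG at its centre. The letters TGACGTCA, the palindromic cyclic AMP response element bound by CREB and ATF proteins, occurred at bases 152 to 159 and 170 to 177 of the window, counted from its 5′ end. Both copies lay in the region at chr6:39725471-39726110, so their CG sites are among those the list reached. Of all 21263 windows, 475 (2.23%) held the motif and 13 (0.0611%) held it more than once. None of the other 8 windows of these genes held it. The letters read the same on both strands, and a match is no evidence of binding. The GC box core GGGCGG, searched on both strands, was found in 7 of the 9 windows, all but Spry2 and Dusp6, and in 46.2% of all windows.

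Every member had a region within 1000 bp of its start, and at the far end only inhibitors, 4 of the 5, had one. Here and below, the start is the first base of the gene's RefSeq span, which is the start of the promoter window at Nras, Spry2, Spred1 and Dusp6. It lies 15 bp before that start at Hras, 121 bp at Rassf1, 195 bp at Braf and 302 bp at Nf1. All 3 activators and all 5 inhibitors had a region at the start, against 71.9% of the 17492 protein-coding genes with a known strand. At the other end, where transcription stops, 0 of 3 activators and 4 of 5 inhibitors had one, against 33.8%. Regions at both ends were thus present for Rassf1, Spry2, Spred1 and Dusp6, and for 29.5% of all 21887 protein-coding genes. Nf1 was the inhibitor without a region at its far end, where the nearest lay beyond the window at 79584021 to 79584580. Genes of like length, within a ratio of 0.8 of the member in either direction, had regions at both ends in 33.4% of cases for Rassf1, 35.8% for Spry2, 25.4% for Spred1 and 36.6% for Dusp6. For the activators the same shares were 37.3% at Hras, 34.9% at Nras and 22.1% at Braf. Genes are not replicates and no test was made. Counting a region only if its midpoint lay in the window left 2 inhibitors with the far end and 1, Rassf1, with both ends. With windows of 2000 bp Hras also had both ends. With windows of 500 bp Dusp6 lost its far end, and Rassf1, Spry2 and Spred1 kept both. The far-end region of Rassf1 also touched the neighbour Tusc2, and that of Dusp6 lay in the non-coding gene Gm34921.

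**Figure D2:**
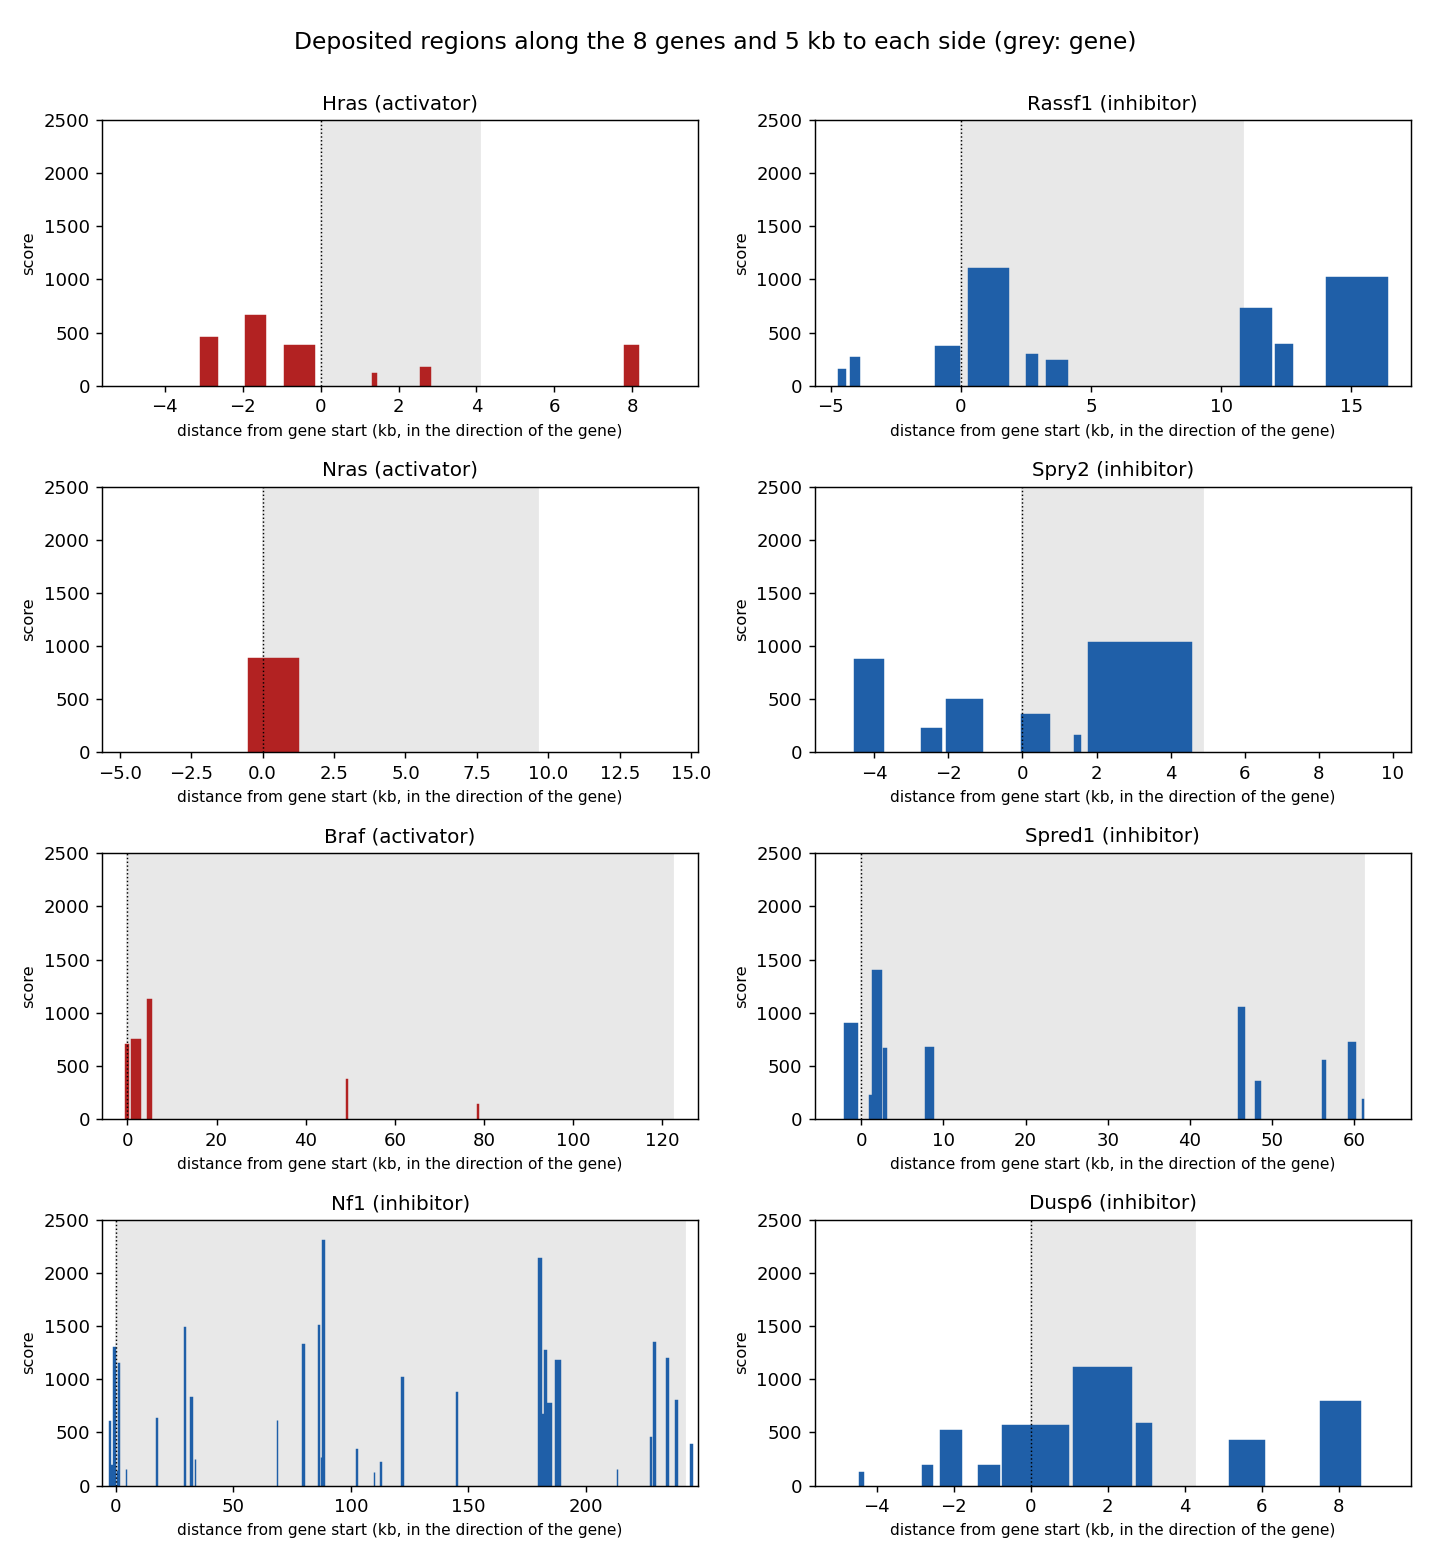
Each panel shows 1 gene (grey) with 5 kb to each side, and each bar is 1 deposited region drawn to its width at its distance from the gene start (x axis, kb, in the direction of the gene) with its score (y axis), activators in red and inhibitors in blue. Nras has a single region at its start, Braf has none in its last 43830 bp, and the score at Nf1 reaches 2312.

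The score is a whole number that the authors gave each region, 1 value for all 8 lines, with a median of 462 and a lowest value of 100 over the list. No source used here says what it counts. Wider regions had higher scores, so each score was also given as a percentile among all regions whose width differed by at most 50 bp. Over the 77 regions the number of regions of like width ran from 103 to 38608. These percentiles describe regions in 1 list and are not tests.

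Among the RAS GTPases, Nras was reached by 1 region and Hras by 6. Nras (chromosome 3, 103058285 to 103067914, plus strand) encodes the N-RAS protein. Its region spanned the start, from position -524 to position 1225 relative to it, at 103057761 to 103059510. Its width was 1750 bp, its score 888 and its percentile 38.5. The remaining 8404 bp of the gene, 87.3% of its length, held no region, and neither did the 5000 bp beyond it. Of 2194 genes of like length the median held 5 regions, and 8.34% held fewer than Nras.

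Hras (chromosome 7, 141189934 to 141194019, minus strand) encodes the H-RAS protein, and most of its scored sequence lay outside the gene. The 2 regions inside the gene were narrow, 100 and 250 bp, with scores of 120 and 176 and percentiles of 24.3 and 11.5. The region nearest the start, 770 bp wide at 141194201 to 141194970, scored 387 at a percentile of 7.9. Further upstream lay regions scoring 663 and 461, and downstream of the gene 1 scoring 385, at percentiles of 58.0, 41.0 and 40.6. All 3 upstream regions lay in Lrrc56, a neighbour on the opposite strand whose span begins 91 bp from that of Hras. Without them the median percentile at Hras was 24.3 over 3 regions, compared with 32.4 over all 6.

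Braf (chromosome 6, 39603231 to 39725658, minus strand) encodes the RAF kinase that RAS activates, and its regions were gathered near its start. The region across the first base of the Braf span, which ends short of the start of the promoter window, scored 706 at a percentile of 51.1, and the next, 2050 bp wide, scored 756 at a percentile of 21.0. The highest score, 1131, lay from 4298 to 5267 bp into the gene (39720391 to 39721360) at a percentile of 77.7. Only 2 regions lay deeper, scoring 378 and 136 at 49018 and 78448 bp from the start. The last 43830 bp of the gene, 35.8% of its length, held none. With 5 regions over 122428 bp, Braf had fewer than most of the 1065 genes of like length, whose quartiles were 9 and 21, and 5.82% of them had fewer. Regions covered 3.1% of the gene and its flanks.

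Nf1 (chromosome 11, 79339590 to 79581609, plus strand) encodes neurofibromin, a GTPase activating protein for RAS, and had the highest scores for width of the 8 genes. Its 31 regions had scores from 132 to 2312 with a median of 780. As percentiles they ran from 4.0 to 98.1 with a median of 74.1, and 25 of the 31 were above 50, compared with 51.2% of all regions. The median was above that of 98.3% of the 203 protein-coding genes with 29 to 33 regions. Around it, the 215 regions within 500 kb had a median percentile of 42.2.

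The high scores at Nf1 were spread along the gene. The highest, 2312, lay 87841 to 88700 bp from the start (79427431 to 79428290) at a percentile of 97.9. The one with the highest percentile, 98.1, was 480 bp wide and scored 1496 at 79368561 to 79369040. A further 2145 lay at 79519241 to 79520490, where the genes Evi2 and Evi2b are nested in the Nf1 span on the opposite strand. The 5 regions that touched Evi2, Evi2a or Evi2b had a median percentile of 62.7, and the 21 that lay inside Nf1 and touched no other gene had one of 76.7. The high values were thus not limited to the nested genes. At the start, the regions on either side of the promoter stretch described above scored 1308 upstream and 140 and 1151 downstream. The 1 region that overlapped the pseudogene Gm11198 scored 830 at a percentile of 51.9. The longest stretch of the gene without a region measured 34650 bp, 14.3% of its length.

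Rassf1 (chromosome 9, 107551434 to 107562267, plus strand) encodes a RAS association domain protein whose promoter is often methylated in human tumours, and had the lowest scores for width. Its 9 regions had scores from 160 to 1108 with a median of 371. The percentiles ran from 0.8 to 67.9 with a median of 16.7, and 1 of the 9 was above 50. The median was above that of 4.38% of the 5535 genes with 7 to 11 regions. The lowest percentile, 0.8, was that of the 820 bp region just after the downstream start (107554701 to 107555520), with a score of 241. The highest, 67.9, was that of the 1530 bp region after the upstream start (107551701 to 107553230), with a score of 1108. The region before the upstream start scored 371 at a percentile of 5.8. Of the 9 regions, 3 touched Zmynd10 upstream and 3 Tusc2 downstream. The 3 that touched no other protein-coding gene had a median percentile of 17.1. Within about 500 kb lie 37 protein-coding genes, Rassf1 included, and the 219 other regions there had a median percentile of 30.6, the lowest of the 8 neighbourhoods.

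Spry2 and Spred1, whose proteins act between the receptor and RAF, had different scores for width. Spry2 (chromosome 14, 105891947 to 105896819, minus strand) had 6 regions, with a median percentile of 25.0. A region 2790 bp wide (105892271 to 105895060) took up most of the gene towards its far end, with a score of 1040 and a percentile of 34.5. The region across the start scored 363 at a percentile of 6.6. The 3 upstream regions scored 502, 232 and 876, at percentiles of 15.6, 3.3 and 61.0. The other regions within 500 kb, where 2 protein-coding genes lie, Spry2 included, had a median percentile of 57.2. Regions covered 40.2% of Spry2 and its flanks.

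Spred1 (chromosome 2, 117121071 to 117182279, plus strand) encodes a protein that brings neurofibromin to the membrane. It had 10 regions, with a median percentile of 55.8. The highest score, 1401, belonged to a region 1370 to 2439 bp after the start (117122441 to 117123510) at a percentile of 88.4, and the next, 1052, to one 45880 bp into the gene at 79.0. Between 8810 and 45880 bp from the start lay 37070 bp without a region, 60.6% of the gene. At the far end a region of 180 bp scored 183. Without regions scoring under 200 Spred1 lost its far end, and Rassf1, Spry2 and Dusp6 kept both.

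Dusp6 (chromosome 10, 99263231 to 99267489, plus strand) encodes a phosphatase that acts on ERK and is itself induced by ERK signalling. Its 9 regions had scores from 132 to 1118, with a median percentile of 37.1. The region across the start, 1720 bp wide at 99262491 to 99264210, scored 566 at a percentile of 10.5. The region just before it scored 190 at a percentile of 0.8. Inside the gene the next regions scored 1118 and 585, at percentiles of 69.6 and 68.1. Downstream, in the long non-coding gene Gm34921, they scored 428 and 796. Regions covered 49.3% of Dusp6 and its flanks, the highest share of the 8 genes, and of 1493 genes of like length 90.6% had fewer regions. The other regions within 500 kb had a median percentile of 68.1.

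**Figure D3:**
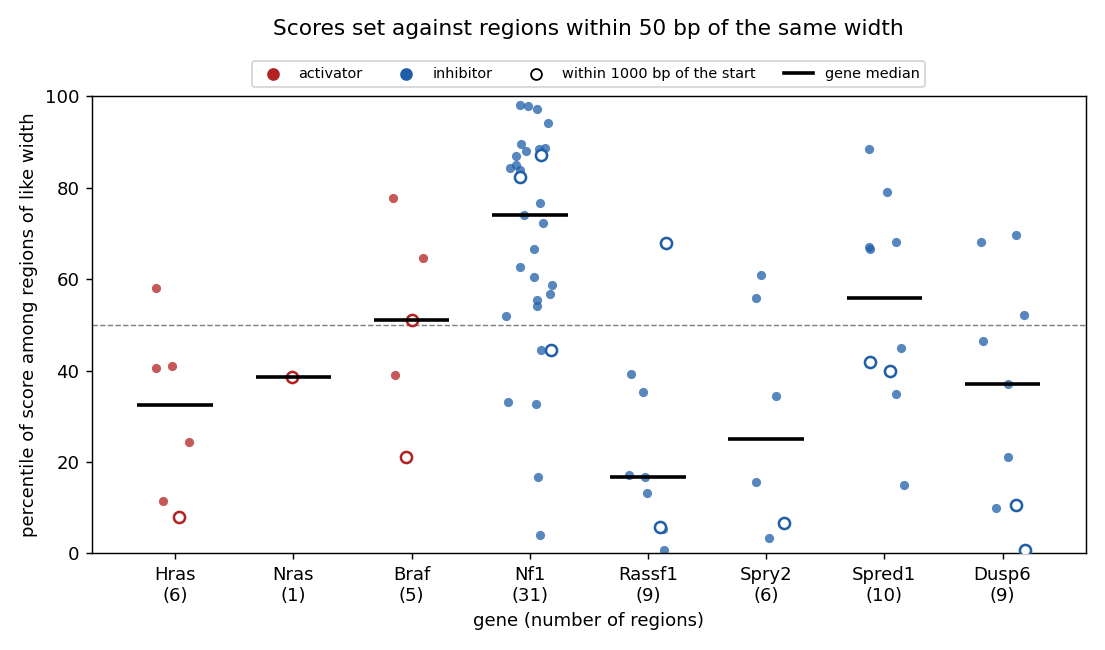
Percentile of each region's score among regions within 50 bp of its width (y axis) for the 8 genes (x axis, number of regions in brackets), with the gene median as a black bar and open points for regions within 1000 bp of the start. The gene medians run from 16.7 at Rassf1 to 74.1 at Nf1, and the lowest activator, Hras at 32.4, lies between them.

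At matched width the sides overlapped, and the highest and the lowest gene were both inhibitors. The gene medians were 32.4, 38.5 and 51.1 for the activators Hras, Nras and Braf. They were 16.7, 25.0, 37.1, 55.8 and 74.1 for the inhibitors Rassf1, Spry2, Dusp6, Spred1 and Nf1. The median over genes was 38.5 for activators and 37.1 for inhibitors, and over the 16406 protein-coding genes with at least 3 regions it was 48.3, with quartiles of 33.9 and 60.0. Thus 3 of the 8 genes, Braf, Spred1 and Nf1, were above 50, compared with 46.3% of those genes. Nras had 1 region and so fell short of that limit of 3, and its value set the activators' 38.5. Without Nras the activators' median was 41.8. Taking only regions that touch the gene itself, the median was 66.6 for inhibitors and 38.5 for activators, since Dusp6 moved to 68.1 and Spred1 to 66.6. With widths matched within 100 bp it was 37.7 for inhibitors and 37.5 for activators. Which side was higher thus depended on these settings.

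Counted over regions, the inhibitors were higher, and this rested on Nf1. Of activator regions 4 of 12 (33.3%) were above the 50th percentile, and of inhibitor regions 36 of 65 (55.4%). Without Nf1 the inhibitors had 11 of 34 (32.4%). For widths of 400 to 800 bp, scores had a median of 562 over 4 activator regions and 700 over 22 inhibitor regions, compared with 635 over the list, whose quartiles were 443 and 882. Without Nf1 the 11 inhibitor regions of that width had a median of 392, below the lower quartile of the list. The lowest of the 4 activator regions scored 387 and the highest 706.

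**Figure D4:**
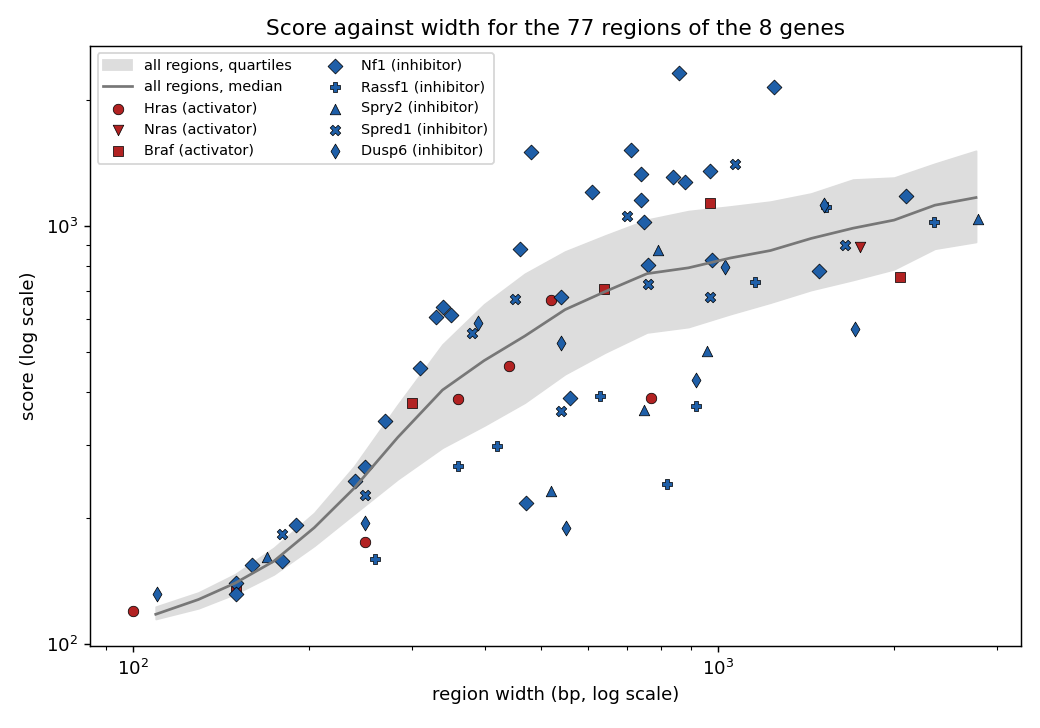
Score (y axis, log scale) against region width (x axis, bp, log scale) for the 77 regions, activators in red and inhibitors in blue with a marker for each gene; the grey line and band are the median and quartiles of all 220894 regions. Most Nf1 regions lie above the grey line and most Rassf1 regions below the band or in its lower part.

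Regions at the starts scored lowest for their width at Hras, Spry2 and Dusp6. The median percentile of regions within 1000 bp of the start was 7.9 at Hras and 6.6 at Spry2, from 1 region each. At Dusp6 it was 5.6 over 2 regions. At Nras (1 region) and at Braf, Rassf1 and Spred1 (2 regions each) it lay between 36.0 and 40.8. The 2 start regions were far apart at Rassf1 (5.8 and 67.9) and at Braf (21.0 and 51.1). At Nf1 the median was 82.3 over 3 regions. Elsewhere in the same genes the median was higher at Hras (40.6), Braf (64.7), Spry2 (34.5), Spred1 (66.8) and Dusp6 (46.5), and lower at Rassf1 (16.7) and Nf1 (73.2). Nras had no other region. Over the whole list, the 21379 regions at the start of a protein-coding gene had a median percentile of 39.6 and the 199515 others 52.1. The low values at Hras, Spry2 and Dusp6 were thus on the same side as those of starts in general. The medians at Braf, Rassf1, Nras and Spred1 were close to that 39.6.

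Other genes of the pathway were taken from a list of 47, 21 that pass the signal on and 26 that limit it, and all 47 matched the gene table. A region lay at an end of all 47, against 76.5% of protein-coding genes. Regions at both ends were present for 7 of the 21 activators (33.3%) and 11 of the 26 inhibitors (42.3%), compared with 29.5%, so the sides differed less than among the 8 genes, with no test. With windows of 500 bp the counts were 4 and 8, and with 2000 bp 11 and 19. The far end had a region in 8 activators (38.1%) and 14 inhibitors (53.8%), against 33.8% of genes with a known strand. The activators of this list were longer genes, with a median length of 64553 bp against 29584 bp for the inhibitors. Gene length was not matched between the sides, and its part was not tested.

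At matched region width, though not at matched gene length, the activators of this list were above the inhibitors. The median over genes with at least 3 regions was 52.2 for 21 activators and 36.8 for 25 inhibitors, with 12 and 9 genes above 50. Among activators, high values included Shoc2, a scaffold for RAF activation (81.1), and the MEK1 gene Map2k1 (73.4). The lowest were the MEK2 gene Map2k2 (8.4), Rras (21.1) and Mras (29.8), both of the RAS family. Among inhibitors the GTPase activating proteins Rasal3 (68.4), Rasa2 (67.8) and Rasa1 (66.6) were highest, below Nf1 at 74.1. The lowest were Dusp7 (9.2), a phosphatase of ERK like Dusp6, Rasal1 (18.1), and Lztr1 (24.8), an adaptor for the breakdown of RAS proteins. By role, the dual specificity phosphatases had the lowest median, 28.4 over 6 genes that ran from 9.2 to 55.3, with Dusp6 at 37.1 beside them. The RAS GTPases of this list, with 29.8 over 3 genes, were close to them.

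**Figure D5:**
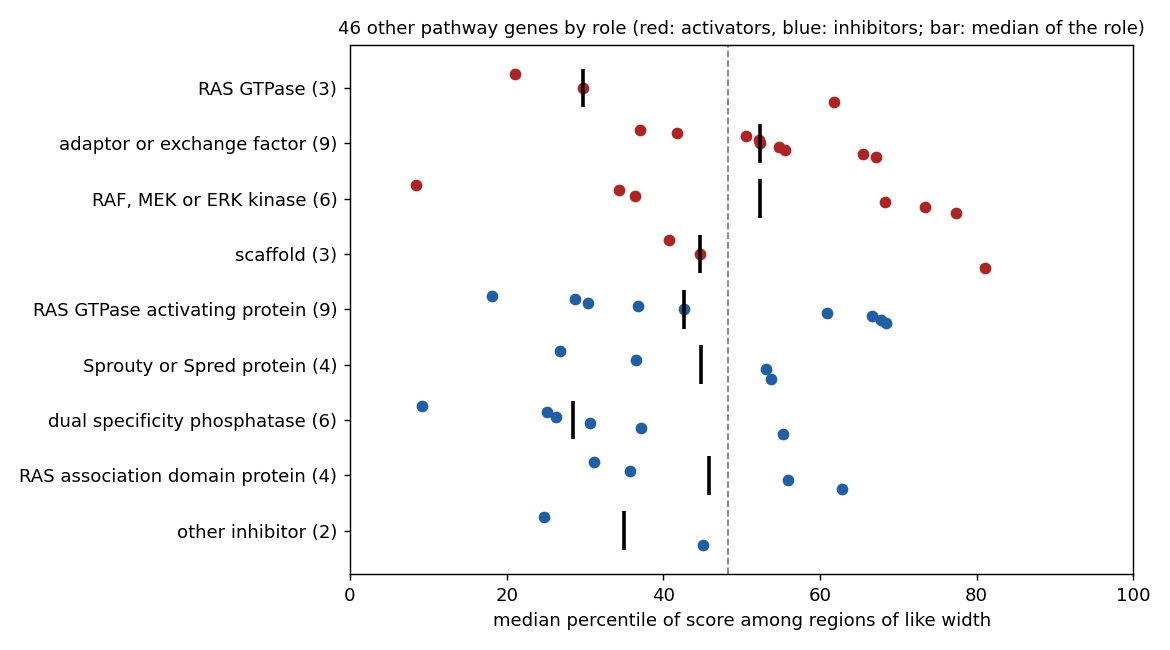
Median percentile of score among regions of like width (x axis) for the 46 other pathway genes with at least 3 regions, by role (y axis, number of genes in brackets), with 1 point a gene, a black bar for the median of the role and a dashed line at 48.3, the median over all such protein-coding genes. The dual specificity phosphatases have a median of 28.4, the RAS GTPases one of 29.8 and the adaptors and exchange factors one of 52.3.

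The promoters of these other genes showed the same fall with CG number. Of their 49 windows, 36 shared a base with a region and 10 lay whole in one. In windows with under 20 CG sites 61.4% of the sites lay in a region, in those with 20 to 29 sites 46.3%, with 30 to 39 sites 33.3%, and in the 2 windows with 40 or more 6.32%. In all, 412 of 986 sites (41.8%) were inside a region, compared with 29.9% for the 8 genes and 43.2% over all protein-coding promoters.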

How the data were processed

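Genomic DNA of the 8 lines was captured with an Agilent kit for mouse methylation (SureSelect XT), per the labels' protocols. Novoalign 3.7.1, Picard and mm10 are named in the submitters' processing notes; how regions were called and filtered is not stated. The deposited score is 1 whole number per region for all lines, on a track declared as narrowPeak, per the file headers.

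Regions were assigned to a gene if they shared at least 1 bp with it or the 5000 bp to each side (RefSeq GRCm38.p6 spans, 21887 protein-coding genes), and to an end within 1000 bp of it. Strand came from the RefSeq promoter table. Percentiles count ties as an equal part of each side. Python 3.11.15, pandas 2.3.3 and numpy 2.4.6 were used, and the overlap and percentile steps were tested on simulated data. With 1 value per region there was no test, replicate error or depth. Named genes are the 8 members, neighbours sharing their regions, and the 3 highest and lowest pathway genes a side by median percentile; single regions were chosen after their values were seen. Members and lists were chosen with earlier results of these data known. Some genes are not reported here.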

Additional observations from a re-analysis of the deposited data

How the results depend on the processing

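Alternatives changed the window, the flank, the reference for width and the regions used; those without regions touching another protein-coding gene and with a reference within 5 Mb were chosen after seeing the data. The number of regions per side stayed within 1.5 times under all 5 alternatives, from 8 to 15 for activators and from 46 to 79 for inhibitors. Both gene ends were covered for 1 activator with windows of 2000 bp and for 1 inhibitor by midpoints. In the wider list, both ends were covered for 4 activators with windows of 500 bp, and for 11 activators and 19 inhibitors with 2000 bp. The activators' median percentile of 38.5 became 40.2 with widths within 20 bp, 37.5 within 100 bp, 33.2 against the same chromosome, 52.7 without regions at gene ends, 37.7 without regions touching another protein-coding gene (Hras and Braf, since Nras then has no value) and 39.4 against 5 Mb. The inhibitors' 37.1 became 36.3 with widths within 20 bp, 29.1 against the same chromosome, 66.6 without flanks, 49.3 without regions at gene ends, 28.6 against 5 Mb and 46.5 without Rassf1. Inhibitors were above activators without flanks and, at 37.7, with widths within 100 bp, and below in the other alternatives of this kind except those leaving out a gene. Leaving out each gene in turn gave 35.5 to 44.8 for activators and 31.1 to 46.5 for inhibitors. For regions of 200 to 400 bp the median scores were 378 and 342, against 296 over the list. The wider list's inhibitors moved from 36.8 to 35.8 against the same chromosome. Nf1 had the highest median of the 8 genes in all 8 alternatives, from 73.2 to 78.8. Rassf1 had the lowest, from 14.9 to 17.5, except without flanks, where Hras with 2 regions had 17.9 and Rassf1 26.2. Nras moved from 38.5 to 62.5 against 5 Mb and Dusp6 from 37.1 to 22.7, and Nras had no value without regions at gene ends. No paired analysis was possible because no result compares groups of samples. The cause of these shifts was not tested. Depth per line is unknown, so a stretch without a region cannot be told apart from one with low coverage.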
